A study of Mus musculus with 3 samples.

Results

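Sox17-GFP(+) cells obtained with Activin A were compared with undifferentiated mouse embryonic stem (ES) cells of the same line, across gene classes of the whole transcriptome. The comparison was chosen by group, as the 2 arrays of Activin-derived cells and the 2 arrays of undifferentiated cells out of 6 arrays in the series, and all 25697 probes entered. Both groups had a 129 strain background and the Sox17-GFP genotype, in which GFP reports activity of Sox17, a transcription factor of endoderm. The Activin-derived cells were differentiated with recombinant human Activin A at 50 ng/ml in 5% serum, for 7 days by their source name and 6 to 8 days by the protocol, and were taken as GFP(+). The undifferentiated cells were kept with leukaemia inhibitory factor (LIF) in 15% serum, on gelatin with mouse embryonic fibroblast feeders. The title of the undifferentiated sample was followed, although the series design text names it as Sox17-GFP(+) too, and the sample descriptions state 2 (Activin), 3 (Nodal) and 4 (undifferentiated) replicates where the signal table and the design text have 2 each. Another 2 arrays held Sox17-GFP(+) cells after recombinant mouse Nodal at 1000 ng/ml. No untreated cells of the same day were measured, so Activin, LIF withdrawal, serum, feeders, culture time and selection by the reporter cannot be told apart. Separate cultures are not stated for the arrays within a group, so the p-values measure only their spread, which may be technical.

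ES cells are pluripotent and divide fast, with a metabolism geared to nucleotide and amino acid supply. Activin A, a ligand of the TGF-beta family, signals through Smad2 and Smad3 and steers ES cells through a stage like the primitive streak toward definitive endoderm, the layer that forms gut, liver and pancreas. Cells leaving the pluripotent state are known to alter cell cycle, chromatin, adhesion, polarity and fuel use together with their marker genes.

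The labels were set against marker genes first. Sox17 had log2 levels of 11.83 and 11.89 on the Activin arrays, against 6.57 and 6.45 on the undifferentiated arrays, and the selection itself favours that difference. Of 19 tested definitive endoderm markers, 18 were higher in Activin-derived cells, and 17 of 19 tested ES cell markers were lower. Markers of some other lineages moved as well. Of 10 tested mesoderm and primitive streak markers 8 were higher (median change 2.04, or 0.378 over all 16 on the array). Of 14 visceral endoderm markers 9 were higher and 4 lower (median 1.04, or 0.162 over all 18). Of 5 trophoblast markers 4 were higher (median 1.26, or 0.0286 over all 10). Neural markers were mixed, with 1 of 8 higher and 3 lower (median 0.041). So were blood and endothelium markers, with 2 of 4 higher and 2 lower (median 1.06, or 0.0088 over all 13). Macrophage markers were detected on both arrays for 4 of 23 genes in Activin-derived cells and for 15 of 23 in undifferentiated cells, and their summed signal was 1371 and 1347 on the Activin arrays, against 13597 and 13786 on the undifferentiated arrays. All 15 tested macrophage markers were lower, 12 of them at least 2-fold (median -1.95, or -1.10 over all 23 on the array). Adgre1, Cx3cr1, Tyrobp and the C1q genes were detected on both undifferentiated arrays and on no Activin array, whereas Csf1r, Ptprc and Itgam were detected on no array of either group. Of 15 tested fibroblast feeder markers 11 were lower, 8 of them at least 2-fold, and 3 were higher, none 2-fold (median -1.13, or -0.63 over all 19 on the array). Col1a1, Col3a1, Mgp and S100a4 were detected on both undifferentiated arrays and on no Activin array, and the summed feeder signal was 8552 and 8046 on the Activin arrays, against 10859 and 9431 on the undifferentiated arrays. In such bulk samples, fewer cells of a type and less RNA per cell cannot be told apart.

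Gene levels are normalized log2 values, changes are differences of Activin minus undifferentiated means, and a gene was tested when its probe was detected (detection p-value under 0.05) on at least 2 of the 6 arrays. The rule for a call was a limma Benjamini-Hochberg adjusted p under 0.05. Of 10222 tested genes, 73.7% passed it, 36.5% higher and 37.2% lower in Activin-derived cells. Because so many genes passed, classes were described by the members that also differed at least 2-fold, a rule met by 26.8% of all tested genes, 14.3% higher and 12.6% lower. These percentages are the background for each count below. The median change over all tested genes was -0.019, and the median size of change was 0.548. For 749 of the 2744 genes past the 2-fold rule, no array of the lower group detected the gene. Such a gene entered through its higher group, the Nodal arrays or both, and never through its lower group, so the filter favoured a difference. A fold is therefore given as "at least" there, and the counts describe tested members and not whole classes. The 2-fold rule used the measured change and not this bound, so the counts can include genes with a bound under 2-fold. Each gene described as higher or lower had an adjusted p of at most 0.000119 (limma, n = 2 arrays per group) and a standard error (SE) of its change between 0.0813 and 0.217, unless another value is given.

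**Figure D1:**
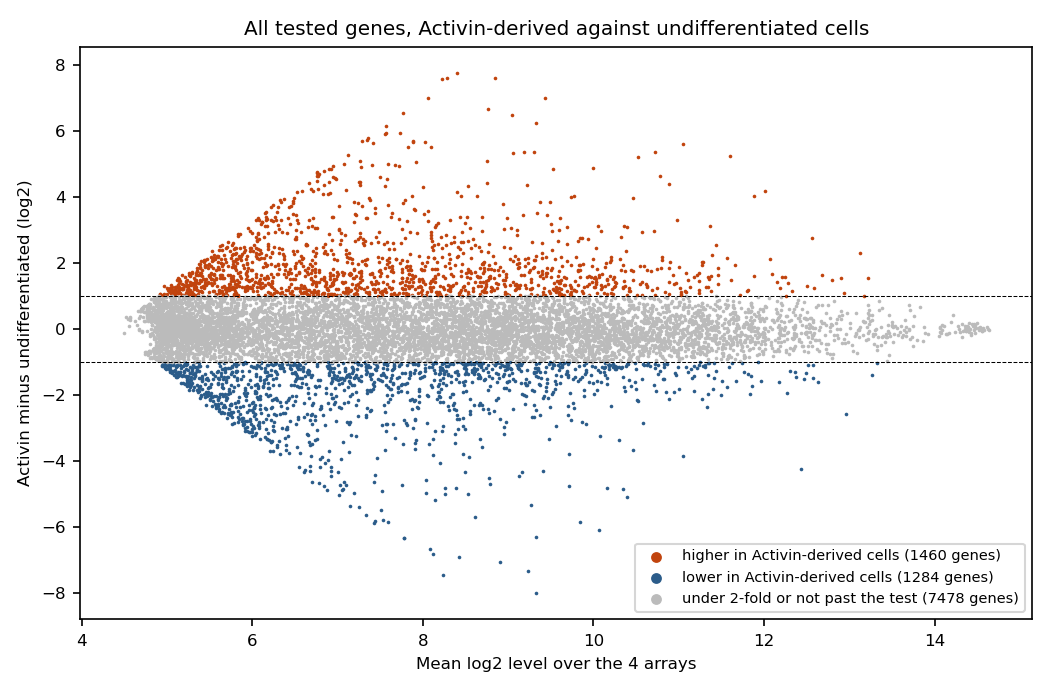
Change (Activin minus undifferentiated, log2) against mean log2 level over the 4 arrays for each tested gene; dashed lines mark 2-fold. Genes at least 2-fold higher (1460) and at least 2-fold lower (1284) lie at low, middle and high levels, while the brightest genes lie between the dashed lines.

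**Figure D2:**
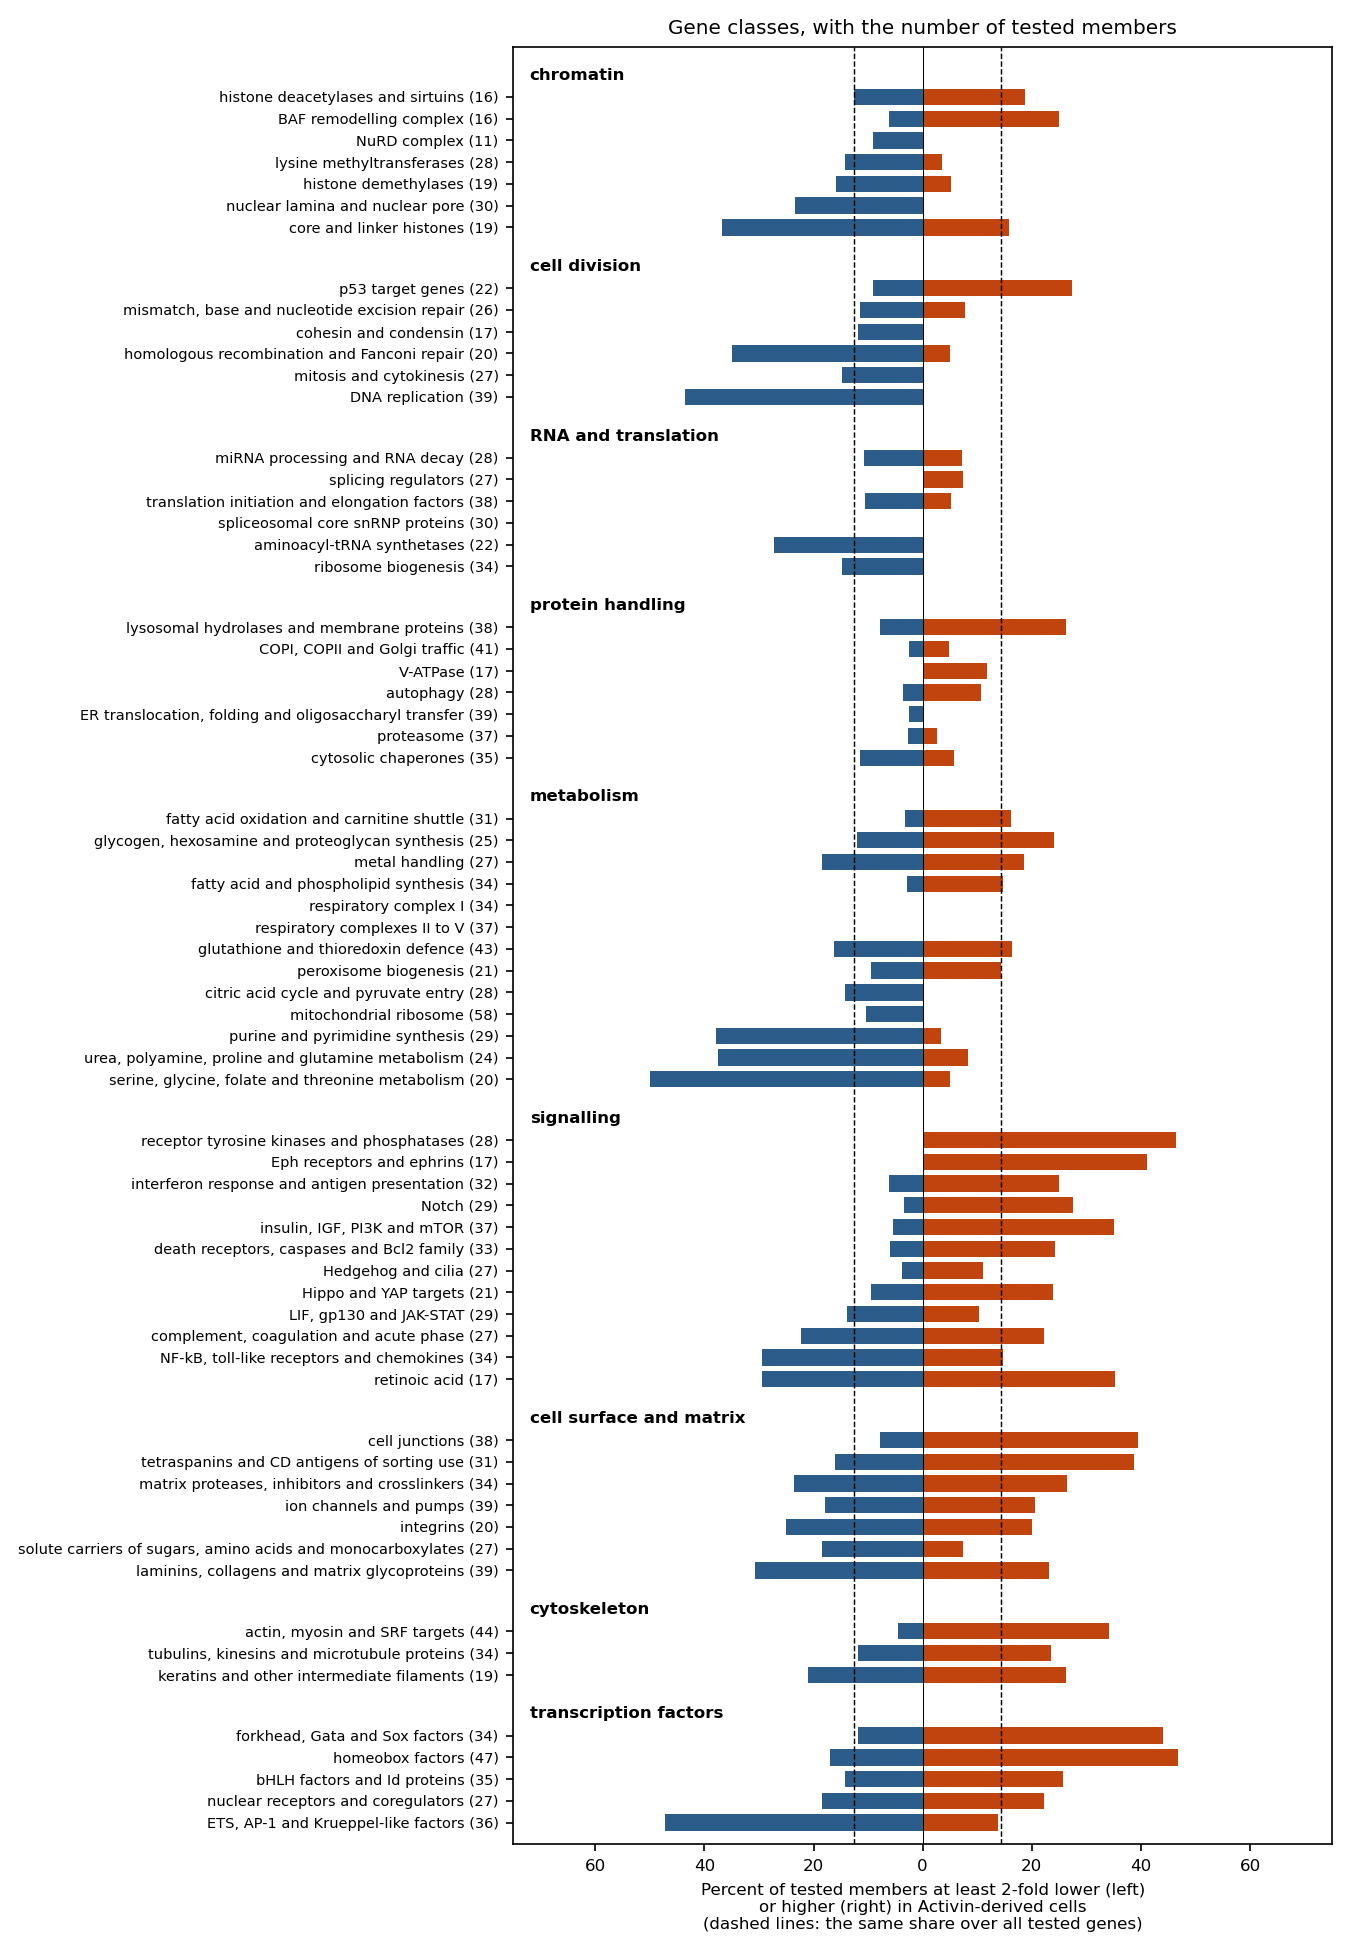
Percent of tested members at least 2-fold lower (left, blue) or higher (right, red) in Activin-derived cells for the gene classes shown, with the number of tested members in brackets. Dashed lines give the shares over all tested genes, 12.6% lower and 14.3% higher; replication and one-carbon metabolism extend left, receptor kinases, junctions and homeobox factors right, and the respiratory chain and core spliceosome show no bar.

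Some of the largest single changes lay outside the lists of endoderm and ES cell markers. Efna5, a membrane-tethered ephrin ligand, had levels of 10.95 and 10.75 in Activin-derived cells, against 5.36 and 5.32 in undifferentiated cells (45.4-fold higher), although its other tested probe gave a change of only 0.90. Gpc3, a heparan sulphate proteoglycan of growth-factor signalling, had 13.09 and 13.14 against 7.97 and 7.87 (36.6-fold higher). Car4, a membrane carbonic anhydrase, had 11.99 and 11.97 against 6.66 and 6.60 (40.8-fold higher). In each case the 2 Activin arrays lay far above both undifferentiated arrays. Pga5, which encodes the digestive proenzyme pepsinogen, was 41.2-fold higher, and Dgkk, a diacylglycerol kinase, was at least 43.8-fold higher. Among decreases, Dnmt3l is itself on the ES cell marker list and encodes the cofactor of de novo DNA methyltransferases in ES and germ cells. Dnmt3l had 6.70 and 7.34 in Activin-derived cells, against 13.14 and 13.09 in undifferentiated cells (68.4-fold lower). Pfkp, the platelet-type phosphofructokinase of glycolysis, had 5.62 and 6.08 against 10.66 and 10.66 (28-fold lower). Both stayed detectable after Activin. L1td1, an RNA-binding protein of pluripotent cells, was 40.1-fold lower, and Zscan4c, of a gene family switched on in rare ES cells that resemble the early embryo, was at least 22.5-fold lower, with near-identical family members that its probe may also bind.

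The machinery of DNA replication was lower as a class. Of 42 such genes on the array 39 were tested, 36 were lower, none was higher and 3 did not pass, with 17 at least 2-fold lower (43.6%) and a median change of -0.95. Rpa2, a subunit of the single-strand binding complex, had levels of 7.98 and 8.37 in Activin-derived cells, against 10.24 and 10.05 in undifferentiated cells (3.92-fold lower). The helicase subunits Mcm3 and Mcm5 were 3.1-fold and 3.07-fold lower, and Mcm7 had 7.72 and 7.69 against 9.23 and 9.35 (3.01-fold lower). Lig1, which joins Okazaki fragments, was 3.26-fold lower by its brightest probe, and its 3 other probes gave changes of -1.16 to -1.99. The single decreases were moderate. The 2 groups of arrays were separate for each of these genes, but the rule for naming genes required that. Of all 10222 tested genes, 8732 were separate in the same way.

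Genes of the replication class are known targets of E2F factors. The E2F site TTTCCCGC or TTTGGCGC, on either strand, was found in the promoters of 10 of 34 members with a RefSeq promoter (29.4%), against 1.8% of promoters of all 27025 genes in the table and 3.26% of those of the 7882 tested genes with one; a promoter here ran from 250 bases before to 50 after the start site. Windows around the first match in the members with the largest changes are shown because these genes moved together, with the matched letters in capitals. All windows are from RefSeq on GRCm38.p6, 5′ to 3′ on the strand of the gene.
Mcm3: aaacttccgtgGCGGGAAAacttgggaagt
Mcm5: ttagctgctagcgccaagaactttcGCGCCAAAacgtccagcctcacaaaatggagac
Mcm7: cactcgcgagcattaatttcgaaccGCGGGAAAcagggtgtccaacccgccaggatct
They lie at chr1:20820275-20820304 (minus strand), chr8:75109335-75109392 (plus strand) and chr5:138172016-138172073 (minus strand), and the matches begin 19 bases after, 149 bases before and 165 bases before the start site. A match describes the letters only.

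Genes of mitosis and cytokinesis moved the same way by smaller amounts. Of 27 tested members 25 were lower and 1 was higher, yet only 4 were at least 2-fold lower (median change -0.84). Bub1b, a kinase of the spindle checkpoint, had 8.18 and 8.55 in Activin-derived cells, against 10.21 and 10.21 in undifferentiated cells (3.59-fold lower). Ube2c, the ubiquitin-conjugating enzyme of the anaphase-promoting complex, had 6.88 and 6.22 against 7.84 and 7.79 (2.4-fold lower), with the 2 Activin arrays further apart than for most genes. Tpx2, a spindle assembly factor, was 2.31-fold lower. The survivin gene Birc5 was 2.03-fold lower by its brightest probe, with other probes at -0.86 and -0.85. The cell-cycle homology region (CHR, TTTGAA on either strand), through which mitotic genes are known to be timed, was in 18 of 23 promoters of the class (78.3%), against 20.2% of all genes and 14.1% of tested genes, and the CCAAT box was in 17 of 23 (73.9%), against 41.1% and 43.5%. The 2 members with a CHR and a change of at least 2-fold were these.
Bub1b: agagacgttaaaTTTGAAactt
Ube2c: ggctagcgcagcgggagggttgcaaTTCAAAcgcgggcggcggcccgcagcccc
The windows are at chr2:118598239-118598260 (plus strand) and chr2:164769875-164769928 (plus strand), with matches that begin 40 bases after and 29 bases before the start site.

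Repair genes split by pathway. In homologous recombination and Fanconi repair, 7 of 20 tested members were at least 2-fold lower and 1 was higher (median -0.74). Rad51c, which acts in homologous recombination, had 6.04 and 5.89 in Activin-derived cells, against 8.12 and 7.89 in undifferentiated cells (4.11-fold lower). Brca2, a tumour suppressor of the same pathway, was 2.85-fold lower, and Fancd2 was 2.37-fold lower. The exception was Mus81, a structure-specific endonuclease (2.19-fold higher). Among 26 mismatch, base and nucleotide excision repair genes, 2 were at least 2-fold higher and 3 lower. Ercc2, a helicase of nucleotide excision repair and TFIIH, had 8.19 and 8.25 against 6.01 and 5.92 (4.77-fold higher). Msh6, a mismatch-recognition subunit, went the other way with 11.36 and 11.24 against 13.42 and 13.08 (3.86-fold lower). Of 22 p53 target genes, 6 were at least 2-fold higher and 2 lower. Cdkn1a, the p21 inhibitor of cyclin-dependent kinases, had 10.97 and 10.91 against 9.22 and 9.32 (3.18-fold higher), whereas Gadd45a, a stress-response gene, had 8.38 and 8.51 against 10.02 and 9.93 (2.89-fold lower).

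One-carbon and nucleotide synthesis had shares of decreases above the background. In serine, glycine, folate and threonine metabolism 10 of 20 tested members were at least 2-fold lower and 1 was higher (median -0.98, or -0.55 over all 26 on the array). Mthfd2, a mitochondrial folate enzyme that supplies one-carbon units, had levels of 6.02 and 6.47 in Activin-derived cells, against 9.53 and 9.67 in undifferentiated cells (10.2-fold lower). Cth, which makes cysteine from cystathionine, had 6.26 and 6.15 against 9.14 and 9.06 (7.43-fold lower). The folate receptor gene Folr1 was 9.52-fold lower. The member that rose was Aldh1l1, a folate enzyme that oxidises 10-formyltetrahydrofolate (7.14 and 7.37 against 5.51 and 5.65, 3.2-fold higher). In purine and pyrimidine synthesis 11 of 29 members were at least 2-fold lower and 1 was higher. Prps1, which makes the ribose donor of all nucleotides, was 7.22-fold lower, and its paralogue Prps2 had 7.54 and 7.33 against 8.90 and 9.04 (2.9-fold lower). Dut, the dUTPase that keeps uracil out of DNA, had 6.94 and 6.98 against 8.65 and 8.61 (3.18-fold lower). Adssl1, the muscle-type adenylosuccinate synthase, was the exception (3.24-fold higher).

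Amino acid genes followed a similar split. Of 24 genes of urea, polyamine, proline and glutamine metabolism, 9 were at least 2-fold lower and 2 higher. Bcat1, the cytosolic branched-chain aminotransferase, had 6.87 and 6.93 in Activin-derived cells, against 11.41 and 11.30 in undifferentiated cells (22-fold lower). Asns, asparagine synthetase, had 11.87 and 11.78 against 13.38 and 13.26 (2.81-fold lower), and Ass1, argininosuccinate synthase, was 4.07-fold lower. Oat, ornithine aminotransferase, was among the higher members (2.43-fold). Of 27 tested carriers of sugars, amino acids and monocarboxylates, 2 were at least 2-fold higher and 5 lower (25.9%, near the background of 26.8%). Slc7a5 and Slc3a2, which together form the large neutral amino acid carrier LAT1, were 3.67-fold and 2.49-fold lower. Slc7a3, a carrier of cationic amino acids, was 27.3-fold lower by its brightest probe, but a second probe gave -0.26.

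**Figure D3:**
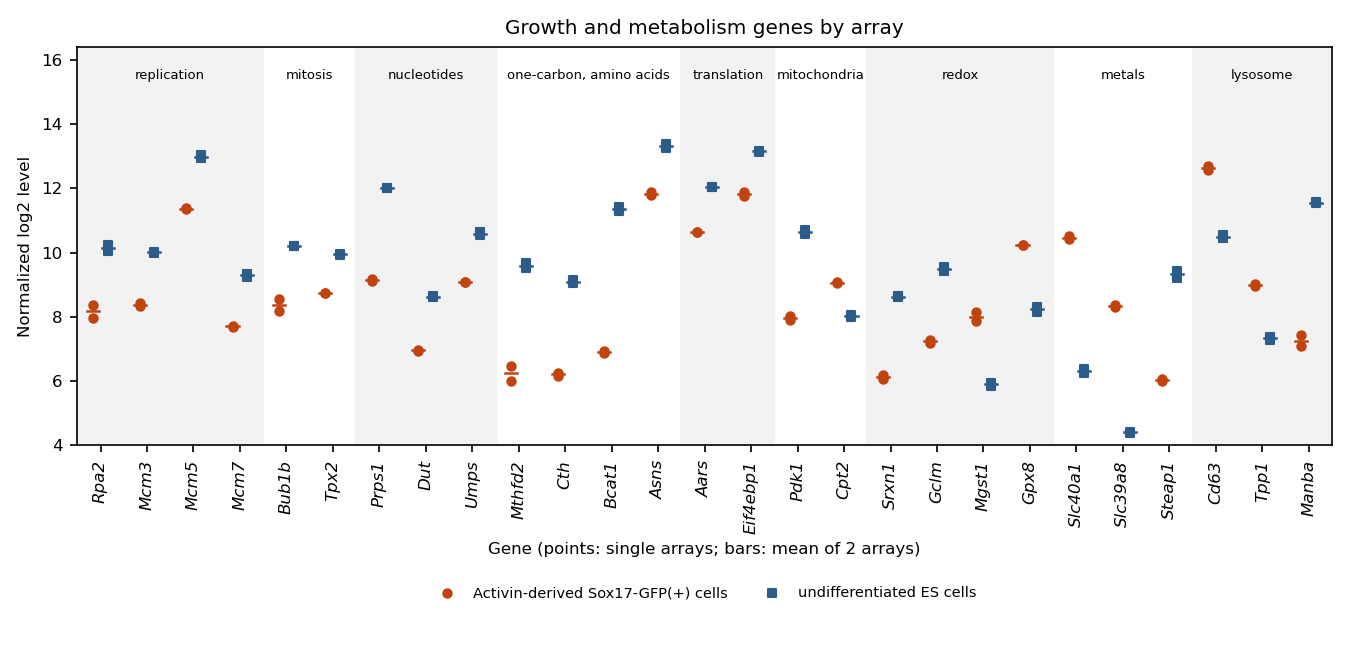
Normalized log2 level of genes of replication, metabolism, redox, metals and lysosome on each array, Activin-derived cells (circles) left of undifferentiated cells (squares), bars at the mean of 2 arrays. Rpa2 to Pdk1 lie lower in Activin-derived cells, while Slc40a1 and Cd63 lie higher. The 2 groups overlap for no gene shown, which the rule for naming genes required.

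Ribosome biogenesis and tRNA synthetase genes were lower in modest steps. Of 34 tested ribosome biogenesis genes 29 were lower and 1 was higher, with 5 at least 2-fold lower (median -0.62). Rrp9, a component of the U3 particle that processes ribosomal RNA, had 8.65 and 8.77 in Activin-derived cells, against 10.12 and 10.31 in undifferentiated cells (2.84-fold lower). Of 22 aminoacyl-tRNA synthetases 17 were lower, 6 of them at least 2-fold. Farsb, of the phenylalanyl enzyme, was 2.68-fold lower. Aars, the alanyl enzyme, had 10.64 and 10.65 against 12.03 and 12.06 (2.64-fold lower), and Tars, the threonyl enzyme, had 8.26 and 8.36 against 9.33 and 9.45 (2.12-fold lower). Of 38 initiation and elongation factor genes 17 were lower, 4 of them at least 2-fold, 5 were higher and 16 did not pass (median -0.19). Among the lower ones was Eif4ebp1, an inhibitor of cap-dependent translation (11.77 and 11.89 against 13.13 and 13.17, 2.5-fold). Synthetase genes are known targets of ATF4 through the amino acid response element TTGCATCA, which was on either strand of 4 of 16 promoters of the class (25%), against 1.03% of all genes and 0.761% of tested genes. The windows of the 3 members with the element and a change of at least 2-fold are shown for that reason; the tyrosyl gene Yars (at least 1.78-fold lower) was named after its values were seen.
Aars: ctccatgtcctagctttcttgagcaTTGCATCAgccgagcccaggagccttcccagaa
Tars: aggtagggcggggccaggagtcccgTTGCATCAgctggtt
Yars: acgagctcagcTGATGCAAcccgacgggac
They lie at chr8:111033705-111033762 (plus strand), chr15:11399659-11399698 (minus strand) and chr4:129189895-129189924 (plus strand), with matches that begin 112 bases before, 15 bases before and 3 bases after the start site.

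Other large assemblies showed small changes. No tested subunit of respiratory complex I (34 genes) or of complexes II to V (37 genes) passed the 2-fold rule, against 26.8% of all tested genes, and their median changes, 0.018 and -0.032, were smaller than the spread between arrays. The largest was Ndufb10, a complex I subunit, with 9.58 and 9.54 in Activin-derived cells, against 10.28 and 10.38 in undifferentiated cells (change -0.77). None of 30 core spliceosome proteins passed it either (median -0.26). One of 39 endoplasmic reticulum translocation and folding genes did, the signal peptidase subunit Sec11c (2.43-fold lower). In the proteasome 2 of 37 did: Psme1, a subunit of the interferon-inducible activator, had 11.30 and 11.29 against 9.85 and 10.01 (2.57-fold higher), and the assembly chaperone Psmd5 was 2.44-fold lower. In the mitochondrial ribosome small decreases prevailed: 38 of 58 tested genes were lower, 6 of them at least 2-fold, and 2 were higher.

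**Figure D4:**
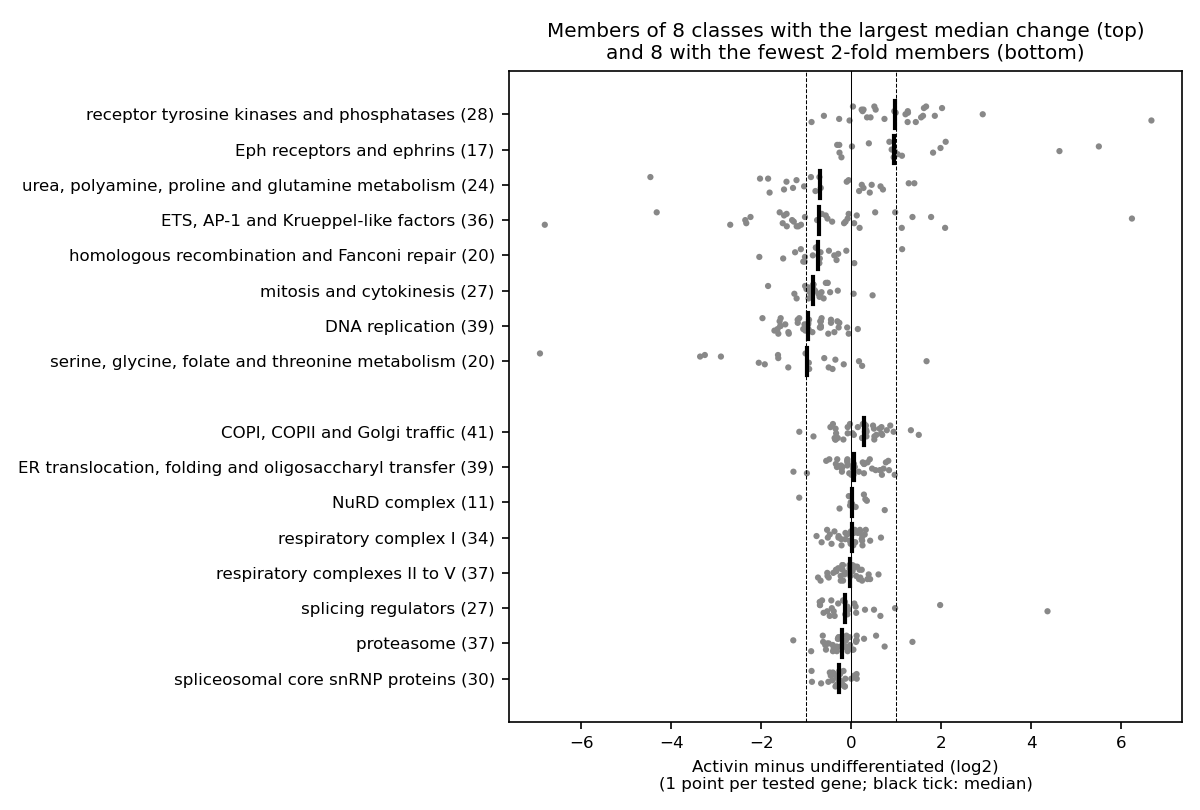
Change of each tested member (Activin minus undifferentiated, log2) in the 8 classes with the largest median change and, of the others, the 8 with the smallest share of 2-fold members, cell type marker lists left out; black ticks are medians and dashed lines mark 2-fold. Replication and one-carbon genes lie mostly to the left of 0, receptor kinases and ephrins mostly to the right, and both respiratory chain lists within the 2-fold lines.

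Of 28 tested genes of the citric acid cycle and pyruvate entry 4 were at least 2-fold lower (14.3%, near the background of 12.6%), none was higher by that much and 13 did not pass the test. Among the lower ones, Pdk1, a kinase that shuts pyruvate dehydrogenase, had 7.89 and 8.04 in Activin-derived cells, against 10.70 and 10.58 in undifferentiated cells (6.37-fold lower), and Pdk4 was 2.68-fold lower. Both are inhibitors, and the dehydrogenase subunit Pdhb was lower too (2.19-fold). Of 31 fatty acid oxidation genes 19 were higher, 5 of them at least 2-fold, and 9 were lower (median 0.42). Cpt2, the inner carnitine palmitoyltransferase, had 9.04 and 9.08 against 7.99 and 8.07 (2.05-fold higher), while Acsl1, an acyl-CoA synthetase, was 3.22-fold lower. In phospholipid synthesis Agpat3, an acyltransferase, had 9.66 and 9.62 against 7.03 and 7.42 (5.34-fold higher), and Cds1, which makes CDP-diacylglycerol, was 3.94-fold higher.

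Redox defence genes changed in both directions. Of 43 tested glutathione and thioredoxin genes 7 were at least 2-fold higher and 7 lower. Among the higher members, Mgst1, a microsomal glutathione transferase, had 8.14 and 7.88 in Activin-derived cells, against 5.95 and 5.85 in undifferentiated cells (4.31-fold higher), Gpx8, of the endoplasmic reticulum, was 4-fold higher, and the peroxiredoxin Prdx4 was 2.37-fold higher. Several lower members are known targets of the transcription factor NRF2. Srxn1, sulphiredoxin, had 6.06 and 6.20 against 8.64 and 8.61 (5.65-fold lower). Gclm, a subunit of the enzyme that starts glutathione synthesis, had 7.28 and 7.19 against 9.55 and 9.43 (4.78-fold lower). Nqo1, a quinone reductase, was at least 2.54-fold lower, and the cytosolic glutathione transferase Gsta3 was at least 17.3-fold lower, while Gstp2 of another transferase class, whose probe may also bind its near-identical paralogue, was at least 42-fold lower. The antioxidant response element TGACNNNGC, bound by NRF2, was on either strand of 10 of 38 promoters of the class (26.3%), against 14% of all genes and 16.8% of tested genes. The windows of the 3 genes with it and the largest changes are shown, since these 3 fell together.
Gsta3: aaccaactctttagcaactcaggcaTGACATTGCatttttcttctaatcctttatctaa
Srxn1: gcagtgggcaGCTAGGTCAgagtgagaca
Gclm: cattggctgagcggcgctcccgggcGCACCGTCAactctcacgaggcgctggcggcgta
They are at chr1:21240439-21240497 (plus strand), chr2:152105542-152105570 (plus strand) and chr3:122245398-122245456 (plus strand), with matches that begin 121 bases before, 28 bases after and 134 bases before the start site.

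Metal handling genes changed in both directions. Slc40a1, ferroportin, the exporter of cellular iron, had 10.52 and 10.41 in Activin-derived cells, against 6.39 and 6.26 in undifferentiated cells (17.7-fold higher). Heph, hephaestin, the ferroxidase that works with ferroportin in gut, was at least 5.09-fold higher. Slc39a8, a zinc and manganese importer, was at least 9.79-fold higher, with another probe at 1.90. The metalloreductases Steap1 and Steap2 were lower (9.84-fold and 5.38-fold), and Trf, transferrin, was at least 2.96-fold lower. Of 27 tested metal genes 5 were at least 2-fold higher and 5 lower.

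The lysosome was higher on balance. Of 38 tested hydrolases and lysosomal membrane proteins 27 were higher, 10 of them at least 2-fold, and 4 were lower (median 0.66). Cd63, a tetraspanin of late endosomes, had 12.57 and 12.71 in Activin-derived cells, against 10.45 and 10.54 in undifferentiated cells (4.43-fold higher). Tpp1, tripeptidyl peptidase, had 9.04 and 8.98 against 7.39 and 7.29 (3.18-fold higher), and Smpd1, acid sphingomyelinase, was 2.97-fold higher. Against this direction, Manba, beta-mannosidase, had 7.42 and 7.09 against 11.55 and 11.56 (19.7-fold lower). Of the proton pump, the subunits Atp6v0a1 and Atp6ap1 were 2.96-fold and 2.88-fold higher, with another Atp6v0a1 probe at 0.84. In all, 9 of 17 V-ATPase genes were higher, but only 2 of them at least 2-fold (11.8%, below the background of 14.3%). The chaperone list leaned the other way by the test alone, with 22 of 35 lower and 4 higher. Only 4 were at least 2-fold lower and 2 higher (17.1%, against 26.8% of all tested genes). Hspb1, a small heat shock protein, had 10.73 and 10.96 against 12.76 and 12.90 (3.95-fold lower), while the co-chaperones Bag2 and Bag3 were 4.6-fold and 4.06-fold higher.

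Of 19 tested core and linker histone genes 12 were lower, 7 of them at least 2-fold, and 4 were higher, 3 of them at least 2-fold (median -0.62). Among the lower members, the replication-dependent gene H2bc12 had 7.52 and 7.64 in Activin-derived cells, against 10.05 and 10.10 in undifferentiated cells (5.63-fold lower), and the linker histone genes H1f1 and H1f5 were at least 3.72-fold and at least 4.28-fold lower, within families of similar copies that the probes may share. H1f0, a linker histone of non-dividing cells, had 8.94 and 9.02 against 7.73 and 7.66 (2.44-fold higher), and Macroh2a1, a variant of silent chromatin, was 2.05-fold higher. The BAF remodelling complex had 4 of 16 tested members at least 2-fold higher and 1 lower. Smarce1, a core BAF subunit, had 10.77 and 10.75 against 9.23 and 9.06 (3.06-fold higher), whereas Smarcd3 was at least 5.93-fold lower. Of writers and erasers, Suv39h1, a histone H3 lysine 9 methyltransferase, was 3.77-fold higher and the class II deacetylase Hdac7 4.36-fold higher. Wdr5 and Rbbp5, shared subunits of the MLL methyltransferases, were 2.72-fold and 3.06-fold lower, with another Rbbp5 probe at -0.88. The demethylase Kdm4c was 3.22-fold lower. At the nuclear envelope 23 of 30 tested genes were lower, 7 at least 2-fold, led by Lmna, which encodes lamins A and C (8.81 and 9.11 against 10.87 and 10.77, 3.62-fold lower).

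Receptor and ligand genes had shares of increases well above the background. Of 28 tested receptor tyrosine kinases and phosphatases 13 were at least 2-fold higher and none lower (median 0.98, or 0.255 over all 45 on the array). Ntrk2, a neurotrophin receptor, was at least 6.75-fold higher by its brightest probe (another gave 1.10), with 7.73 and 7.89 in Activin-derived cells, against 4.85 and 4.91 in undifferentiated cells. Ptprs, a receptor phosphatase that binds proteoglycans, had 11.61 and 11.84 against 9.90 and 9.83 (3.63-fold higher), and Mertk, which recognises dying cells, was 3.17-fold higher. Of 17 Eph receptors and ephrins 7 were at least 2-fold higher and none lower. Epha7 was at least 16.3-fold higher, with other probes at 0.76 and 1.38, and the ligands Efna1 and Efna4 were 3.96-fold and 3.53-fold higher. In these lists 28 of 45 and 17 of 20 genes on the array were tested.

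Growth factor pathways added ligands, binding proteins and targets. In the insulin and IGF class 13 of 37 tested genes were at least 2-fold higher and 2 lower. The IGF-binding protein gene Igfbp5 had 10.80 and 10.60 in Activin-derived cells, against 4.82 and 4.71 in undifferentiated cells (at least 50.2-fold higher), and Igfbp3 had 9.12 and 9.27 against 5.64 and 5.72 (11.4-fold higher). Igfbp7 moved the opposite way (6.44 and 6.45 against 11.12 and 11.15, 25.7-fold lower). Pik3r3, a regulatory subunit of PI3 kinase, was 10.5-fold higher. In the Notch pathway 8 of 29 genes were at least 2-fold higher and 1 lower. Ligand, receptor and targets all appeared among them: Jag1 had 8.67 and 8.38 against 5.47 and 5.57 (8.01-fold higher), Notch3 9.44 and 9.32 against 6.03 and 6.08 (10-fold higher), and the target Hey1 9.37 and 9.27 against 6.45 and 6.31 (7.63-fold higher). The feedback inhibitor Nrarp and the target Hes1 were 6.92-fold and 2.65-fold higher, and Notch4, of endothelium, was 6.09-fold lower, with a second probe at -0.68.

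The pathway of LIF, which the protocols list only in the medium of undifferentiated cells, had 3 of 29 tested genes at least 2-fold higher and 4 lower. Socs3, a feedback inhibitor induced by STAT3, had 9.54 and 9.61 in Activin-derived cells, against 11.25 and 11.34 in undifferentiated cells (3.3-fold lower). Pim3, a STAT3-induced kinase in ES cells, had 10.71 and 10.67 against 12.41 and 12.48 (3.37-fold lower). Cish, a feedback inhibitor induced by STAT5, went the other way with 10.08 and 10.08 against 7.91 and 8.00 (4.36-fold higher), as did the kinase gene Jak2 (3.25-fold higher). Of Hedgehog genes, the ligand Shh was at least 7.26-fold higher, with another probe at 1.69, and the signal transducer Smo 3.09-fold higher, in a class where 3 of 27 members were at least 2-fold higher and 1 lower. Hippo and YAP genes split between relatives: Ccn1 had 9.98 and 10.20 against 7.15 and 6.89 (8.4-fold higher), and Ccn2, a matricellular relative that YAP also induces, had 9.76 and 9.87 against 11.39 and 11.26 (2.85-fold lower). Tgfb2, a TGF-beta ligand, was 11.8-fold higher.

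Every one of 17 tested retinoic acid genes passed the test, 6 of them at least 2-fold higher and 5 lower. Cyp26a1, which degrades retinoic acid, had 8.99 and 8.99 in Activin-derived cells, against 4.57 and 4.47 in undifferentiated cells, where neither array detected it (at least 15.4-fold higher). The receptor gene Rarb was at least 7.32-fold higher, with 7.98 and 7.87 against 4.69 and 4.55, while the receptor gene Rarg was 6.71-fold lower, with 5.37 and 5.36 against 8.14 and 8.08. Crabp1, which holds retinoic acid in the cell, was at least 5.09-fold lower. Stra8, a retinoid-induced gene of germ cells, was at least 4.51-fold lower. A direct repeat with a spacer of 5, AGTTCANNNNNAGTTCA or AGGTCANNNNNAGTTCA on either strand, was in 1 of 14 promoters of the class in 0.0296% of all genes and in 0.0254% of tested genes; that member, Cyp26a1, is shown with the repeat in capitals.
Cyp26a1: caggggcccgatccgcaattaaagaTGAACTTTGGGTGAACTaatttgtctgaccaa
The window is at chr19:37697751-37697807 (plus strand), and the match begins 32 bases before the start site.

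Interferon-responsive genes were higher in most cases. Of 32 tested interferon response and antigen presentation genes 20 were higher, 8 of them at least 2-fold, and 6 were lower (median 0.60, or 0.168 over all 45 on the array). Gbp2, an interferon-induced GTPase, had 9.18 and 9.34 in Activin-derived cells, against 4.62 and 4.73 in undifferentiated cells (at least 18.4-fold higher). Usp18, which removes ISG15 from proteins, had 9.29 and 9.12 against 5.03 and 4.94 (at least 17.8-fold higher), and Oasl2 was at least 7.01-fold higher. Irf2, an interferon regulatory factor, had 8.25 and 8.33 against 5.95 and 5.86 (5.22-fold higher). Ifitm3, a membrane protein that blocks virus entry and is also expressed in pluripotent and germ cells, was 3.15-fold lower. The interferon-stimulated response element GAAANNGAAA was on either strand of 13 of 26 promoters of the class (50%), against 3.99% of all genes and 3.53% of tested genes. Windows of the 3 members with the element and the largest changes are shown because they rose together; Isg15 (3.3-fold higher), which encodes a ubiquitin-like modifier, was named after its values were seen.
Gbp2: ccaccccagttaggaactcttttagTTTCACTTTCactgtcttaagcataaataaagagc
Irf2: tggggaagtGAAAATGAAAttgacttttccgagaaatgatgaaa
Isg15: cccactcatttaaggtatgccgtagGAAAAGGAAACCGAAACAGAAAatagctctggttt
They are at chr3:142620579-142620638 (plus strand), chr8:46739495-46739538 (plus strand) and chr4:156200862-156200921 (minus strand), with first matches that begin 59 bases before, 241 bases before and 78 bases before the start site; the capitals in Isg15 cover 3 overlapping matches.

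In the NF-kB, toll-like receptor and chemokine class 10 of 34 tested genes were at least 2-fold lower and 5 higher. The lower members were led by chemokines. Ccl4, which attracts monocytes, had 4.30 and 4.47 in Activin-derived cells, against 9.08 and 8.96 in undifferentiated cells (at least 15.9-fold lower, and -1.74 by another probe). Cxcl1, a neutrophil chemokine, was at least 14.5-fold lower, and Ccl7 was at least 8.18-fold lower. None of these was detected on an Activin array. Macrophage and feeder cells can also produce these chemokines, and the summed macrophage marker signal was 1371 and 1347 on the Activin arrays, against 13597 and 13786 on the undifferentiated arrays; its part in the chemokine difference was not tested. The cytokine gene Il18 was at least 2.93-fold higher. In the complement, coagulation and acute phase class 6 of 27 tested genes were at least 2-fold higher and 6 lower. Cd55 and Cd59a encode membrane proteins that protect cells from complement: Cd55 had 10.67 and 10.72 against 6.34 and 6.38 (20.2-fold higher) and Cd59a had 10.58 and 10.55 against 7.50 and 7.49 (8.35-fold higher), while C1qb and C1qc, made by macrophages, were at least 2.09-fold and at least 3.33-fold lower.

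Of 33 tested death genes 8 were at least 2-fold higher and 2 lower by the brightest probe (median 0.23). With the mean of each gene's probes 4 were at least 2-fold higher and 2 lower. Fas, a death receptor, had 7.13 and 7.15 in Activin-derived cells, against 5.10 and 4.95 in undifferentiated cells, where 1 array detected it (4.34-fold higher). Casp8, the caspase it activates, had 7.97 and 7.85 against 6.26 and 6.11 (3.31-fold higher). Apaf1, of the apoptosome, was 2.59-fold higher by its brightest probe, and another probe gave 0.72. Mcl1, a short-lived survival factor, was 2.23-fold lower.

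Cell junction genes rose in 22 of 38 tested cases, 15 at least 2-fold, and fell in 8. Cldn6, a claudin of embryonic epithelium, had 13.04 and 13.16 in Activin-derived cells, against 8.48 and 8.45 in undifferentiated cells (24.9-fold higher). Patj, a tight junction scaffold of cell polarity, was at least 5.34-fold higher, with other probes at 1.12 to 2.44. The gap junction gene Gjb2 was at least 5.04-fold higher. Jam2, a junctional adhesion molecule, was at least 40.4-fold lower (4.49 and 4.47 against 10.36 and 10.37), and its other probes gave -2.65 to -4.54. Itgae and Itgb7, integrin chains that pair with each other, were at least 8.03-fold and at least 7.89-fold lower, with other Itgae probes at -3.51 and -1.46. The adaptor genes Ilk and Fermt1 were instead 3.47-fold and at least 2.94-fold higher. In the matrix class 9 of 39 tested genes were at least 2-fold higher and 12 lower. Both chains of the main basement membrane collagen were higher, Col4a1 with 11.18 and 11.48 against 9.54 and 9.56 (3.43-fold) and Col4a2 with 10.06 and 10.51 against 8.62 and 8.57 (3.23-fold). Spp1, osteopontin, had 9.09 and 9.16 against 13.01 and 12.96 (14.5-fold lower), and the proteoglycan Bgn was 5.12-fold lower. Lox, which crosslinks collagen, was at least 22-fold lower (4.83 and 4.46 against 9.58 and 9.39). Fibroblasts also make Bgn and Lox, and 8 of 15 tested feeder markers were at least 2-fold lower, with the feeder collagen genes Col1a1 and Col3a1 detected on no Activin array; the part of feeder cells was not tested. The matrix proteases Mmp15 and Mmp14 were at least 5.58-fold and 3.49-fold higher and Mmp17 13.2-fold lower.

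Surface protein genes included several large changes. Of 31 tested tetraspanins and CD antigens 12 were at least 2-fold higher and 5 lower. Tspan12, a coreceptor of norrin signalling, had 8.63 and 8.20 in Activin-derived cells, against 4.56 and 4.51 in undifferentiated cells (at least 10.3-fold higher), and Cd24a was at least 9.63-fold higher. Neither was detected on an undifferentiated array. Icam1, an adhesion receptor of leukocytes, had 8.23 and 8.36 against 9.75 and 9.89 (2.88-fold lower). Of 39 channels and pumps 8 were at least 2-fold higher and 7 lower. Clic6, an intracellular chloride channel protein, had 11.43 and 11.14 against 6.11 and 6.29 (34-fold higher), and the potassium channel Kcnk1 was 5.58-fold higher. Aqp3, a water and glycerol channel, had 4.81 and 4.85 against 9.10 and 9.24 (at least 17.7-fold lower), and the calcium pump Atp2a3 was 12-fold lower.

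**Figure D5:**
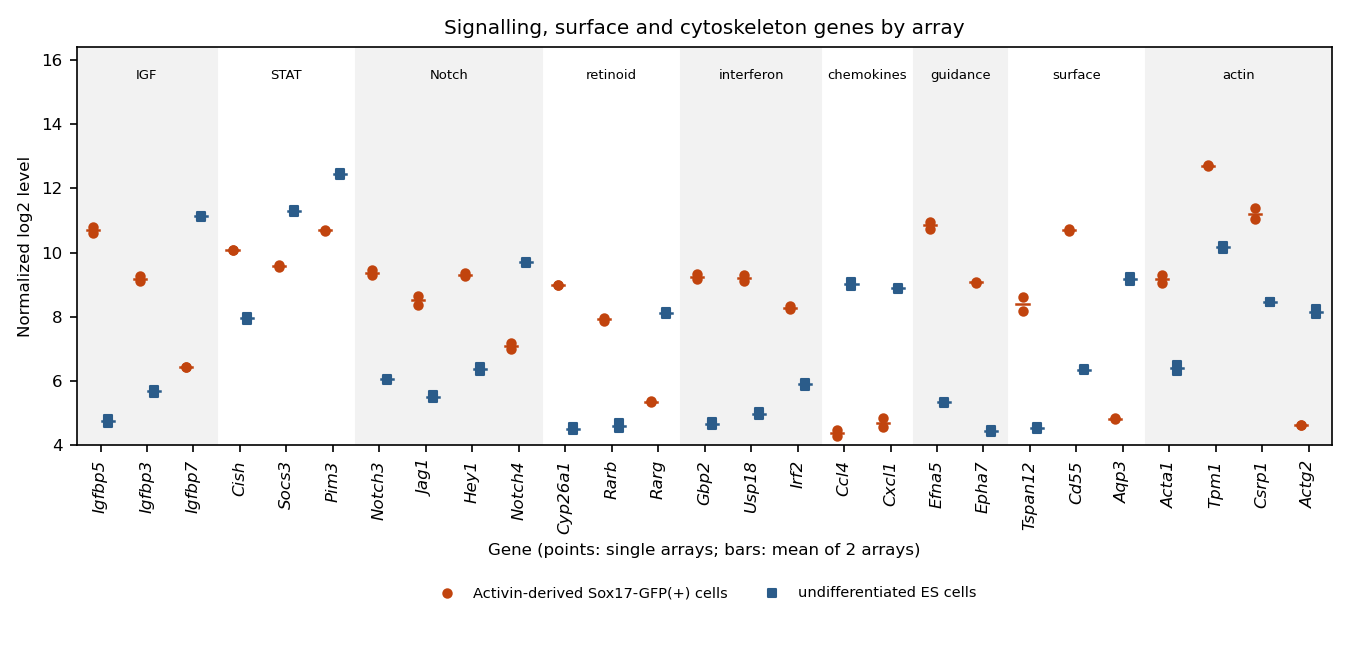
Normalized log2 level of signalling, surface and actin genes on each array, Activin-derived cells (circles) left of undifferentiated cells (squares), bars at the mean of 2 arrays. Within the Notch, retinoid and IGF groups relatives lie on opposite sides (Notch3 and Notch4, Rarb and Rarg, Igfbp5 and Igfbp7). The 2 groups of arrays overlap for no gene shown, which the rule for naming genes required.

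The actin cytoskeleton was higher as a class. Of 44 tested actin, myosin and SRF target genes 30 were higher, 15 at least 2-fold, and 7 were lower, 2 at least 2-fold (median 0.63). Tpm1, a tropomyosin, had 12.70 and 12.72 in Activin-derived cells, against 10.21 and 10.11 in undifferentiated cells (5.85-fold higher). Csrp1, a cytoskeletal LIM protein, had 11.05 and 11.38 against 8.46 and 8.46 (6.76-fold higher). Acta1, skeletal muscle actin, had 9.05 and 9.30 against 6.32 and 6.50 (6.81-fold higher), while Actg2, an actin of smooth muscle, was at least 8.77-fold lower. Outside the list, the sarcomeric genes Myl3, a cardiac myosin light chain, and Pdlim3, a PDZ and LIM protein, were at least 33.7-fold and 50.4-fold higher, the second detected on 1 undifferentiated array. The CArG box, bound by serum response factor, was on either strand of 7 of 39 promoters of the class (17.9%), against 1.81% of all genes and 1.66% of tested genes. Windows of the 3 members with the box and the largest changes are shown with it in capitals, since all were higher; Vcl, vinculin of focal adhesions, was 2.95-fold higher and Cnn2, a calponin, 4.53-fold higher.
Acta1: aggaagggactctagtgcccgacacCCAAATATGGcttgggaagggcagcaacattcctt
Cnn2: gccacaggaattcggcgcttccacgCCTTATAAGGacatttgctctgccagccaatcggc
Vcl: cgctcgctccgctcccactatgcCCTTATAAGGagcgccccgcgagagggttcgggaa
They are at chr8:123894814-123894873 (minus strand), chr10:79988519-79988578 (plus strand) and chr14:20929148-20929205 (plus strand), with matches that begin 73 bases before, 56 bases before and 227 bases before the start site.

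Some single traffic and filament genes had large changes. As a class, of 41 tested COPI, COPII and Golgi traffic genes only 2 were at least 2-fold higher and 1 lower (7.32%, against 26.8% of all tested genes). Of 19 tested keratins and other intermediate filaments 5 were at least 2-fold higher and 4 lower (47.4%, median -0.03). Rab38, a GTPase of lysosome-related organelles, had 9.89 and 9.79 in Activin-derived cells, against 5.37 and 5.25 in undifferentiated cells (23.1-fold higher), and Rab15, of recycling endosomes, had 12.48 and 12.41 against 8.47 and 8.50 (15.6-fold higher). Among keratins, the simple-epithelial genes Krt19 and Krt7 were 15.1-fold and 8.63-fold higher and Krt17 was at least 37.1-fold lower. Kif21a, a kinesin, was at least 5.21-fold higher. In RNA processing, the epithelial splicing regulators Esrp1 and Esrp2 were 20.6-fold and at least 3.68-fold higher and were the only 2 of 27 tested splicing regulators past the 2-fold rule.

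Transcription factor families went in different directions. Homeobox genes had 22 of 47 tested members at least 2-fold higher and 8 lower (median 0.48, or 0.034 over all 77 on the array). The Iroquois genes Irx3 and Irx5, patterning factors that lie in 1 gene cluster, had 9.91 and 9.87 and 9.85 and 9.75 in Activin-derived cells, against 4.89 and 4.95 and 4.72 and 4.70 in undifferentiated cells (at least 28.6-fold and at least 26.9-fold higher). ETS, AP-1 and Krueppel-like factors leaned down, with 17 of 36 at least 2-fold lower and 5 higher (median -0.70, or -0.20 over all 49 on the array). Etv5 and Etv1, ETS factors induced by FGF and ERK signalling, were 6.44-fold and at least 3.88-fold lower. Fos had 9.28 and 8.80 against 11.26 and 11.48 (5.03-fold lower), while Jun, its partner in AP-1, had 8.72 and 8.52 against 6.32 and 6.74 (4.26-fold higher). Among bHLH factors, Mycl, a MYC relative, had 11.21 and 11.26 against 8.25 and 8.06 (8.47-fold higher). The circadian genes Arntl and Clock, which encode partners in 1 activator, were 4.08-fold and 2.31-fold lower, and Bhlhe40, a circadian repressor, was 4.3-fold lower. Of nuclear receptors, Nr2f1 was at least 3.18-fold higher and Nr5a2, an activator of Pou5f1 in early embryos, at least 18.4-fold lower.

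A small share of genes differed between Activin-derived and Nodal-derived cells. Of all 10222 tested genes 2.88% passed the same test there, 1.36% higher and 1.52% lower in Activin-derived cells, and 0.245% passed it at least 2-fold. The 294 calls behind the first share dropped to 82 without Activin replicate 2. Ttr, a carrier of thyroid hormone and marker of visceral endoderm, had 8.44 and 7.64 in Activin-derived cells, against 11.17 and 11.08 in Nodal-derived cells (change -3.08, limma adjusted p = 0.000218 from the fit over all genes). Soat2, which esterifies cholesterol, had 5.34 and 5.50 against 7.04 and 7.42 (change -1.81), and Dab2, an endocytic adaptor, had 9.25 and 9.31 against 10.86 and 10.60 (change -1.45). All were lower after Activin than after Nodal, on every array, and 11 of 14 tested visceral endoderm markers, a list that holds these 3 genes, passed the test as lower (median -0.97). Defa31, a defensin gene of a family of similar copies, was higher after Activin, with 10.36 and 10.72 against 9.23 and 9.43 (change 1.21). Of the class genes named above, those past this test without reaching 2-fold included Igfbp7 (0.79) and Spp1 (0.84).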

How the data were processed

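Total RNA was labelled as biotinylated cRNA and hybridised to 1-colour Illumina bead arrays, per the labels' protocols. Each of 25697 probes had a deposited intensity on each of 6 arrays, not normalized per the file headers. Beside each deposited intensity stood a detection p-value, and all 154182 of these were multiples of 1/798, to within 0.001 times that step. The sources used here name no array model, scanner software or genome build. The deposited averages per sample were not used, because they hold no spread.

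Intensities were background-corrected with limma 3.58.1 in R 4.3.3 (normexp from the detection p-values, offset 16), quantile-normalized and log2-transformed. Between 49.3% and 50.6% of the probes were detected on each array, which limits what can be said of dim genes, and the number of arrays limits the precision. Probes detected (p-value under 0.05) on at least 2 arrays were kept (14050), and the brightest kept probe stood for each of 10222 genes, 2699 of which had other kept probes. Symbols were updated through the RefSeq gene table of GRCm38.p6: 17548 were current, 7082 were updated, 1046 kept the file's symbol and 21 had become dates and were not named. A model of 3 groups was fitted to all 6 arrays with lmFit and eBayes, two-sided, with Benjamini-Hochberg adjustment over all tested genes, and the procedure was tested on simulated data. Where no array of the lower group detected a gene, its fold was bounded: on each such array its level was set to the dimmest detected probe, or left as measured where higher.

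The members, the 76 gene lists and the tests were chosen with earlier results of these data known. Named genes were Sox17, the 40 largest increases and 40 largest decreases that passed, did not overlap between groups and were detected by both of the higher group's arrays, and per list up to 5 genes each way at least 2-fold changed, or the 2 largest past the threshold where fewer than 2 were; the text leaves out some, and a few are not reported here. Yars and Isg15 lie outside the rule. Motifs were searched in RefSeq promoters of GRCm38.p6; a window upstream of the start site was not carried past it, and one at or after it held at most 30 bases. The replicate numbers were checked for pairing: deviations of same-numbered arrays correlated at 0.004 between Activin and undifferentiated, 0.10 between Activin and Nodal and 0.025 between Nodal and undifferentiated, across genes, so the numbers were taken only as names. Alternatives changed the background correction, offset, normalization, detection filter, choice of probe, arrays fitted and replicate block, or left out each Activin or undifferentiated array in turn. Neither Nodal array was left out by itself.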

Additional observations from a re-analysis of the deposited data

Results flagged for a closer look

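In 4 named genes the Activin effect differed from the Nodal effect by at least 2-fold in a limma test of the difference over all genes (n = 2 arrays per group). Ttr was lower after Activin than after Nodal by a log2 change of -3.08 (adjusted p = 0.000218), Soat2 by -1.81 (adjusted p = 0.000218) and Dab2 by -1.45 (adjusted p = 0.000218). Defa31 was higher after Activin than after Nodal, by 1.21 (adjusted p = 0.00174). The dose, protein and species of origin of Activin and Nodal differ together, and their parts cannot be told apart.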

How the results depend on the processing

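All 198 named genes kept their direction under the 13 alternatives tried, also with each Activin or undifferentiated array left out in turn. Where none of these arrays was left out, they also kept their side of the test. Each had been named from the same arrays with an adjusted p of at most 0.000119 (limma), so this outcome was close to fixed in advance. The counts of genes at least 2-fold changed between Activin-derived and undifferentiated cells stayed within 1.5 times of 2744. The count for Activin against Nodal, 294, was less stable: 472 without background correction, 468 with an offset of 50, 116 without the filter, and 82 to 242 with 1 array left out, lowest without Activin replicate 2. Over 988 list medians under the alternatives, 206 moved by more than the spread between arrays. The settings with the most such moves were median scaling (35), no filter (33) and an offset of 50 (29). A detection p under 0.01 (28) and no background correction (22) came next. Among medians larger than that spread 4 reversed: NF-kB, toll-like receptors and chemokines (0.017 under median scaling and 0.084 with a detection p under 0.01, against -0.17), complement, coagulation and acute phase (0.058 with a detection p under 0.01, against -0.17) and laminins, collagens and matrix glycoproteins (0.0060 without the filter, against -0.39). Another 32 changes of sign, in 12 lists, were of medians no larger than the spread. Median scaling moved the median of all genes to 0.078 and the higher share of 2-fold calls to 61.5%, against 53.2%. With the replicate block, 3751 genes were higher and 3831 lower past the test, in place of 3736 and 3800, and the 2-fold count was the same. The cause of these shifts was not tested. With 2 arrays a group, a lone array left in a group was assumed to vary like the others, and genes near the detection limit have only bounds.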
